A study of Mus musculus with 24 samples.

Results

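The 2 histone marks of active chromatin mapped in wild-type (WT) mouse forelimb buds, H3K27ac and H3K4me2, were compared peak by peak in the same tissue. The members were every peak of the WT H3K27ac list and of the WT H3K4me2 list on chromosomes 1 to 19, X and Y, 49679 and 36585 peaks, which together made 86264 of the 368246 peaks in the 7 lists of the series. Peaks of the 2 marks that had at least 1 bp in common were called shared, and the rest were called alone. The WT limb buds were E10.5 forelimbs of embryos with 32 to 35 somites on a Swiss Webster background, with 400000 cells per chromatin immunoprecipitation (ChIP), 2 ChIP libraries and 1 input library per mark. By the study's methods the control embryos were somite-matched littermates of mutants, heterozygous embryos among them, and whole forelimbs of several embryos were pooled, so each library mixed mesenchyme with ectoderm, vessels, blood and migrating muscle precursors. Embryos lacking Sonic hedgehog (Shh-/-) of the same age and somite range supplied the same pair of marks plus H3K27me3. NIH3T3 cells, a mouse fibroblast line, supplied H3K27ac after 48 h with DMSO or with 400 nM of the Hedgehog agonist purmorphamine. Each list was called by the authors from both libraries of a condition together. No list therefore has a replicate, and no test between classes could be made. Shares are given with 95% Wilson intervals, which cover counting error only, with their range over the 20 chromosomes that held at least 100 peaks of each list, and beside the Shh-/- pair of lists.

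Acetylation of lysine 27 of histone H3 is laid down by the acetyltransferases p300 and CBP at enhancers and promoters in use, and histone deacetylases take it away. Dimethylation of lysine 4 is laid down by the MLL and SET1 methyltransferases at promoters and enhancers, and it is also found at genes that are poised but silent. At such genes lysine 27 often carries trimethylation from Polycomb complexes instead, and the same lysine cannot carry both modifications. In the early limb bud the mesenchyme makes up most of the tissue and uses patterning genes of the Hox, Tbx and Meis families.

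The sequences of 7 of the best-ranked regions are shown so that their base composition can be read beside the shares over whole classes given further on. Each sequence is the 300 bases inside the peak that lay nearest its summit and outside annotated exons, read 5′ to 3′ on the plus strand of GRCm38.p6 (mm10 in the peak lists), and the capitals mark CpG dinucleotides. The windows of promoter peaks with both marks lie at chr13:54687194-54687493 near the start of Rnf44, which encodes a RING finger protein and had the H3K27ac peak of rank 2, and at chr2:80447626-80447925 near Frzb, a secreted Wnt antagonist with the H3K4me2 peak of rank 5.
Rnf44, both marks: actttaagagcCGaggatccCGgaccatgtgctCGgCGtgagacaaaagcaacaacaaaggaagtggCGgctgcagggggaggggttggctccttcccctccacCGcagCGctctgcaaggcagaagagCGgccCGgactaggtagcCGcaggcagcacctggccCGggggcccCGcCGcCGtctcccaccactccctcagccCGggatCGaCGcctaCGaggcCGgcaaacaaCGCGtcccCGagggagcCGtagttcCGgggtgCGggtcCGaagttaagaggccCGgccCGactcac
Frzb, both marks: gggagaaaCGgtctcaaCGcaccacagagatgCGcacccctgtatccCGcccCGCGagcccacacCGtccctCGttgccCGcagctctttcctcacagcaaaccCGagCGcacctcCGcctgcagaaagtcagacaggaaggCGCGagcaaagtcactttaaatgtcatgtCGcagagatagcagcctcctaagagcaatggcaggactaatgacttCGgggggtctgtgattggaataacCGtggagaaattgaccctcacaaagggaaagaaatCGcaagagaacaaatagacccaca

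The promoter windows with methylation alone lie at chr6:145866192-145866491 near Bhlhe41, a circadian repressor with the H3K4me2 peak of rank 3, and at chr4:87230016-87230315 in Slc24a2, a sodium, potassium and calcium exchanger with the peak of rank 6. A distal window with methylation alone lies at chr5:103692472-103692771, in the intergenic H3K4me2 peak of rank 10.
Bhlhe41, methylation alone: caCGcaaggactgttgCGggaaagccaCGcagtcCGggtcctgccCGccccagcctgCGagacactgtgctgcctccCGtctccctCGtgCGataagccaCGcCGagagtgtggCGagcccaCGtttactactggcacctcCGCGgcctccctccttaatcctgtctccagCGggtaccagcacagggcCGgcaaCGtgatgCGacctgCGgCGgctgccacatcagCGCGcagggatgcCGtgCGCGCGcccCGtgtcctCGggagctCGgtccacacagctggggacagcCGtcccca
Slc24a2, methylation alone: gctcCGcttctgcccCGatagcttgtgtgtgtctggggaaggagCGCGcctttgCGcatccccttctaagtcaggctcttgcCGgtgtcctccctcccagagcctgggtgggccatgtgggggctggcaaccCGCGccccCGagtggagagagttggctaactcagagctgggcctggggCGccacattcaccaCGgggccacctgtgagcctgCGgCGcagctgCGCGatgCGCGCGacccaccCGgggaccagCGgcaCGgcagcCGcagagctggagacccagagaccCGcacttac
Intergenic, methylation alone: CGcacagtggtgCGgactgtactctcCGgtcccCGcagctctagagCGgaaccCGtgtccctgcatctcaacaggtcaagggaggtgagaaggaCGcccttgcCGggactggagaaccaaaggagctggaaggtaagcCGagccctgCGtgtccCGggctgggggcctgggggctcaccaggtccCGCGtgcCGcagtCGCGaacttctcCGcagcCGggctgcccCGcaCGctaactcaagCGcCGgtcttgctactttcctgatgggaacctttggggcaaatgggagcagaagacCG

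The distal windows with acetylation alone lie at chr6:35355212-35355511, in the intergenic H3K27ac peak of rank 93, and at chr12:34200822-34201121, in the H3K27ac peak of rank 109 in an intron of Hdac9.
Intergenic, acetylation alone: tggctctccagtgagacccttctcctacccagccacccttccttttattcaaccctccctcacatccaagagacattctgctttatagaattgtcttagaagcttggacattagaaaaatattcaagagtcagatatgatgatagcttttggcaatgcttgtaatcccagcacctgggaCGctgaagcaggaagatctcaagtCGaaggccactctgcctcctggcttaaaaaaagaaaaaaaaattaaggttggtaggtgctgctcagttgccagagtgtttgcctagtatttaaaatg
Hdac9 intron, acetylation alone: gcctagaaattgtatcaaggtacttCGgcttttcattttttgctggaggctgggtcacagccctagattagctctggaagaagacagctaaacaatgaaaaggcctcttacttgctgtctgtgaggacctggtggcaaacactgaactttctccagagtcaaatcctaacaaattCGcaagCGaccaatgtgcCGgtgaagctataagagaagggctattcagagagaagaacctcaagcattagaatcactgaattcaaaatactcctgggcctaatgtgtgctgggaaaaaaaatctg

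The Rnf44 and Frzb windows held 28 and 18 of them, and the Bhlhe41, Slc24a2 and chromosome 5 windows held 31, 23 and 23. The 2 distal windows with acetylation alone held 2 and 4. Single regions varied within a class, and other best-ranked windows went the other way. Windows chosen in the same manner held 38 at Dyrk1a and 30 at Atrx, both promoters with acetylation alone, and 7 at Usp43 and 7 at Dock4, both promoters with methylation alone. The window at Hist1h4j, in the best-ranked shared H3K27ac peak, held 11.

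The promoter states of marker genes were checked against the tissue label. A gene's promoter was taken as 2000 bp before to 1000 bp after any of its annotated starts. Of all protein-coding genes 43.0% carried both marks, 0.820% H3K27ac alone, 21.0% H3K4me2 alone and 35.2% neither. Both marks were also at 78 of 79 ribosomal protein genes, so that state by itself does not identify a tissue. Each of the 8 mesenchyme markers (Prrx1, Prrx2, Tbx5, Msx1, Twist1, Lmx1b, Fgf10 and Pdgfra) carried both marks. The hindlimb genes Tbx4 and Pitx1 carried H3K4me2 alone. Of the 6 ectoderm markers, Epcam, Cdh1 and Fgf8 carried H3K4me2 alone, and Krt5, Krt14 and Trp63 carried neither. The muscle precursor genes Pax3 and Lbx1 carried H3K4me2 alone, while Myod1 and Myf5 carried neither. Of the endothelial markers Kdr and Cldn5 carried H3K4me2 alone, Cdh5 carried H3K27ac alone, and Pecam1 and Tek carried neither. Of the blood markers Klf1 carried H3K4me2 alone, and Gata1, Alas2 and Ptprc carried neither. The neural genes Sox1, Pax6 and Neurog1 carried H3K4me2 alone and Olig2 neither, and the 8 endoderm and cardiac markers carried neither. Among these markers both marks together were found only at the mesenchyme ones, but longer lists given further on hold genes of other cell types with both marks, such as Erg, Fli1 and Lmo2 of endothelium, Tal1 of blood and Tfap2a and Tfap2c of ectoderm. In whole limb buds, a mark in few cells and a weak mark in many cells cannot be told apart.

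H3K27ac was the more widespread mark by number of peaks, and most of its peaks had no H3K4me2 peak on them. Of the 49679 H3K27ac peaks, 15937 overlapped H3K4me2 (32.1%, interval 31.7 to 32.5), and the share ran from 25.1% on chromosome 3 to 43.8% on chromosome 17. Of the 36585 H3K4me2 peaks, 17890 overlapped H3K27ac (48.9%, interval 48.4 to 49.4), with a range of 41.6% on chromosome X to 52.6% on chromosome 3. That left 33742 peaks with acetylation alone and 18695 with methylation alone. Joined into regions, the lists gave 66424 regions, of which 21.1% held both marks, 50.8% acetylation alone and 28.1% methylation alone. The lists covered similar amounts of sequence, 23.2 Mb or 0.853% of the genome for H3K27ac and 21.9 Mb or 0.805% for H3K4me2, and 6.95 Mb lay under both. In Shh-/- limb buds 31.5% of H3K27ac peaks overlapped H3K4me2 and 41.3% of H3K4me2 peaks overlapped H3K27ac. The H3K27ac share thus differed little between genotypes, and the H3K4me2 share was 48.9% in WT and 41.3% in Shh-/-. A peak called alone has no listed peak of the other mark, and weaker signal of that mark below the authors' threshold was not measured here.

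Sharing went with promoters. A peak was called a promoter peak if any part of it lay in a promoter window, and distal otherwise. Among H3K27ac peaks, 79.1% of those with H3K4me2 were promoter peaks (12606 peaks, interval 78.5 to 79.7, 72.5% to 85.3% over chromosomes), against 9.78% of those alone (3301 peaks, 9.47 to 10.1, 7.45% to 17.5%). Among H3K4me2 peaks the values were 78.5% for those with H3K27ac (14040 peaks, 77.9 to 79.1, 72.1% to 86.4%) and 62.9% for those alone (11757 peaks, 62.2 to 63.6, 53.5% to 71.2%). Within each list, the ranges over chromosomes of the shared and the lone peaks did not overlap. The same 4 shares in Shh-/- limb buds were 79.7%, 12.4%, 78.6% and 65.0%. Acetylation alone was therefore a class of distal peaks, with 45.4% of its members in introns, 41.0% between genes and 3.81% in exons outside promoters. Its median distance to the nearest annotated start was 19872 bp, against 498 bp for methylation alone and 124 and 205 bp for shared H3K27ac and H3K4me2 peaks.

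Looked at the other way round, 79.2% of the 15907 promoter H3K27ac peaks overlapped H3K4me2, and 9.86% of the 33772 distal ones did (9.55 to 10.2). For H3K4me2 the gap was smaller, with H3K27ac on 54.4% of 25797 promoter peaks and on 35.7% of 10788 distal peaks (34.8 to 36.6). Introns and intergenic sequence were alike in this. H3K4me2 lay on 9.46% of intron and 9.00% of intergenic H3K27ac peaks, and H3K27ac lay on 37.9% of intron and 36.7% of intergenic H3K4me2 peaks. Many lone peaks were far from the other mark, at a median of 32151 bp for acetylation alone and 12051 bp for methylation alone. Only 8.57% of the former and 23.7% of the latter had the other mark within 500 bp, and 23.7% and 10.3% had none within 100 kb.

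The deposited rank orders the peaks of a list by the authors' score of ChIP against input, and the marks behaved differently along it. Each list was cut into 10 equal parts by rank. In the best of the 10 parts of the H3K27ac list 77.3% of 4968 peaks overlapped H3K4me2, and the share fell at every step to 16.2% in the worst. Among distal H3K27ac peaks it fell from 41.6% to 4.46%, and among promoter peaks from 94.7% to 60.5%. The H3K4me2 list had no such order at its top. H3K27ac lay on 54.2% of its best part (52.5 to 55.8), on 62.1% of the fourth (60.6 to 63.7) and on 30.7% of the last. In Shh-/- limb buds the H3K27ac list again fell at every step, from 71.4% to 16.9%, and the H3K4me2 list gave 49.8% in the best part, 52.7% in the third and 26.8% in the last. Of the best part of the WT H3K4me2 list 91.9% were promoter peaks, also where they were alone (89.9% of 1677).

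**Figure D1:**
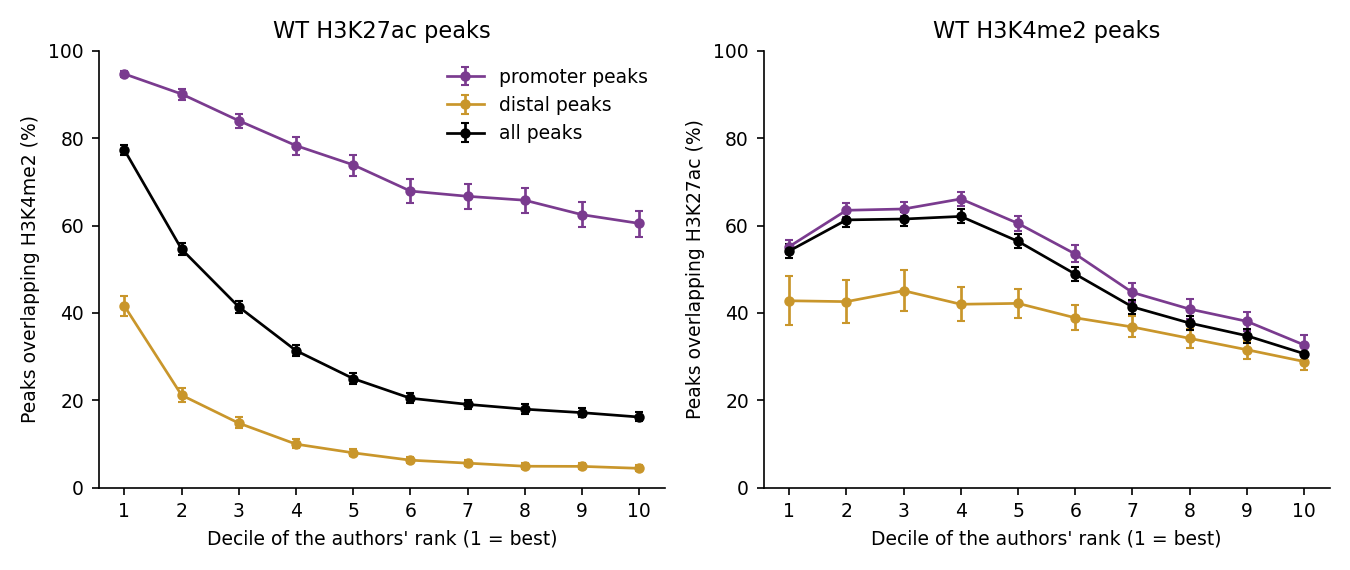
The share of WT peaks that overlapped the other mark (y axis, percent) is plotted for 10 equal parts of the list by the authors' rank (x axis, 1 is best) for H3K27ac peaks on the left and H3K4me2 peaks on the right, with 95% Wilson intervals as bars. For H3K27ac the share falls from 77.3% to 16.2% and promoter peaks stay far above distal ones, whereas for H3K4me2 the best part (54.2%) lies below the fourth (62.1%).

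Shared peaks were wider than lone ones in both lists. The median width of H3K27ac peaks was 500 bp with H3K4me2 (quartiles 250 and 950) and 200 bp alone (150 and 350). For H3K4me2 peaks it was 650 bp with H3K27ac (300 and 950) and 300 bp alone (150 and 700). Promoter and distal peaks of similar width still differed. Of H3K27ac peaks of 250 to 500 bp, 78.3% at promoters and 9.48% elsewhere overlapped H3K4me2, and of those over 2000 bp, 93.4% and 49.5% did. For H3K4me2 peaks of 250 to 500 bp the shares with H3K27ac were 48.1% at promoters and 38.3% elsewhere. A wide peak has more sequence in which to meet another, so a gain with width is in part built into the measure.

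**Figure D2:**
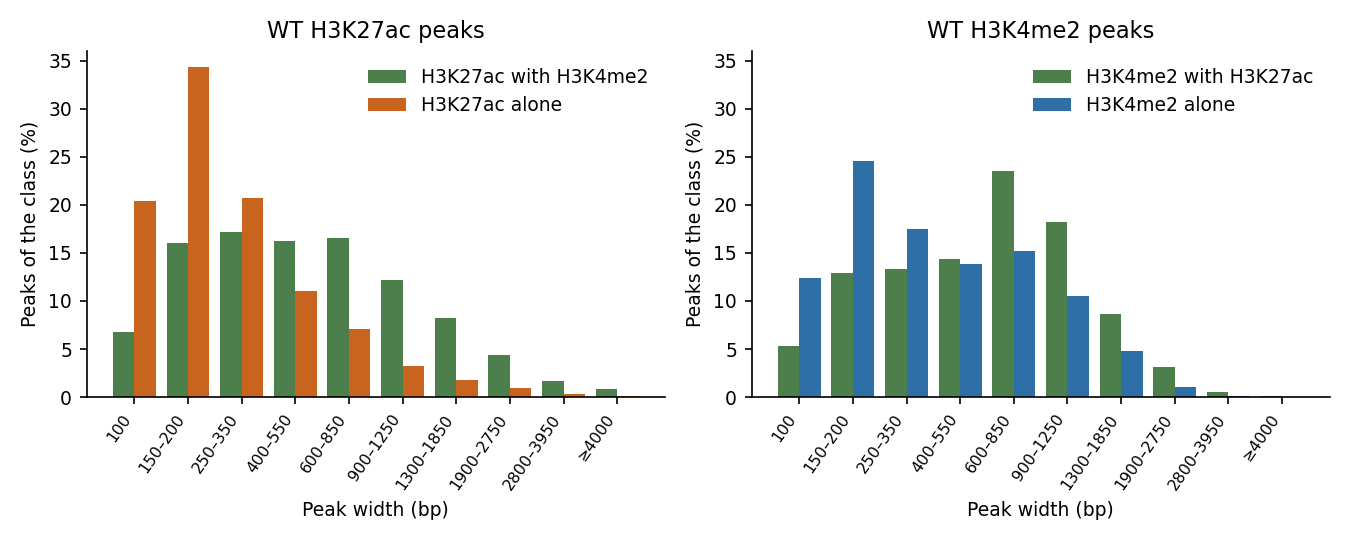
Bars give the percentage of each class of WT peaks (y axis) in each range of peak width in bp (x axis), H3K27ac on the left and H3K4me2 on the right. Peaks alone pile up at 150 to 200 bp (34.3% of acetylation alone, 24.6% of methylation alone), and shared peaks spread over wider ranges.

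How the marks overlapped differed between promoters and distal sites. At promoters H3K4me2 covered 66.9% of the sequence of shared H3K27ac peaks, and elsewhere it covered 35.2%. At distal sites the H3K4me2 peaks were the narrower partners, with a median of 250 bp against 500 bp for shared distal H3K27ac peaks, and 59.9% of them lay wholly inside acetylated sequence, compared with 24.5% at promoters. Single acetylated domains could hold many methylated pieces: up to 21 H3K4me2 peaks lay on 1 H3K27ac peak, while no H3K4me2 peak met more than 6 H3K27ac peaks.

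Around the starts of protein-coding genes the marks had their highest coverage at different distances. Taking the outermost start of each of the 9436 genes with both marks, H3K27ac peaks covered most genes at 250 bp downstream (73.7%) and H3K4me2 peaks at 550 bp downstream (78.3%). Upstream, the highest coverage was at 300 bp for H3K27ac (45.3%) and 350 bp for H3K4me2 (56.7%). Between these points, in the group with both marks, coverage fell to 38.8% for H3K27ac at 100 bp upstream and to 30.9% for H3K4me2 at 50 bp upstream, so both marks dipped just before the start and H3K4me2 dipped more. In the 4609 genes in the group with methylation alone, H3K4me2 coverage rose at every step of 50 bp from 43.0% at 300 bp upstream through 62.0% at the start to 77.0% at 250 bp downstream, with no dip. Among CpG-rich promoters alone, H3K4me2 covered 30.8% of starts of 7477 genes with both marks and 72.3% of starts of 2482 genes with methylation alone.

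**Figure D3:**
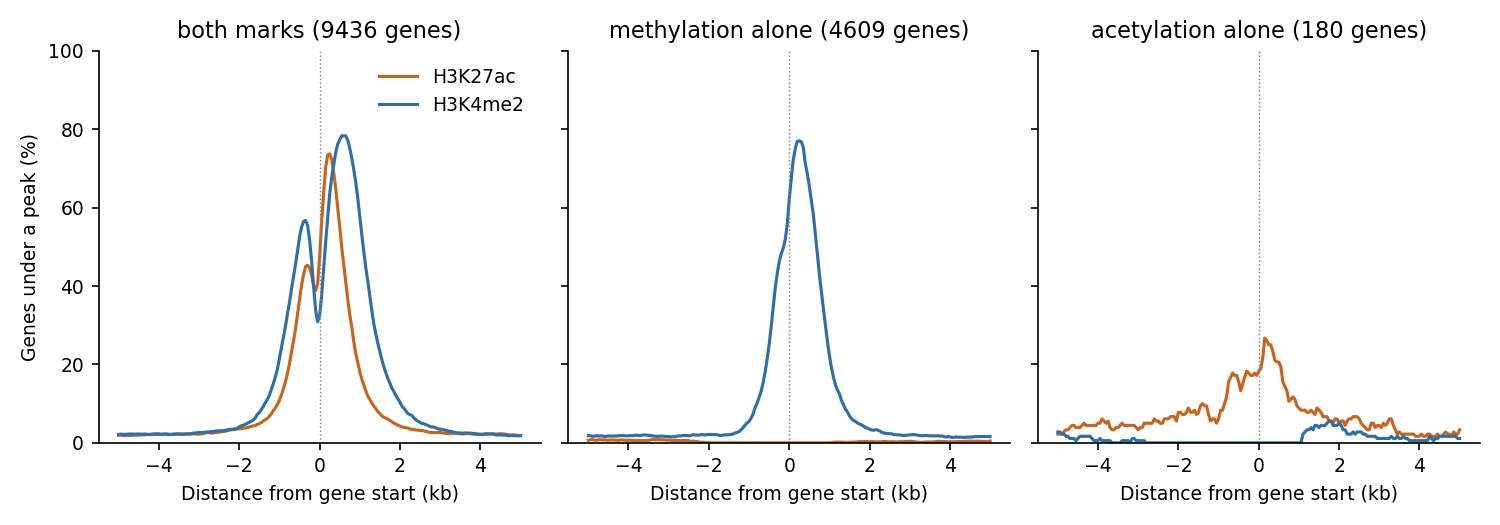
The percentage of protein-coding genes whose sequence lay under a WT peak (y axis) is plotted against distance from the gene's outermost start in kb (x axis, downstream to the right) for H3K27ac in orange and H3K4me2 in blue, by promoter state. With both marks the blue line has its maximum farther out (550 bp) than the orange one (250 bp) and dips next to the start, while with methylation alone the blue line has a single summit.

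The best-ranked H3K4me2 peaks lay at promoters without acetylation. The peaks of rank 1, 2 and 3 were at Usp43 (chr11:67921400-67923149, a ubiquitin protease), Cspg5 (chr9:110244900-110245949, a proteoglycan of the nervous system) and Bhlhe41 (chr6:145865700-145867049). The authors' largest log2 ratios of ChIP to input in them were 5.92, 5.78 and 5.72, and the nearest H3K27ac peaks were 100151, 37851 and 10101 bp away. These 3 peaks had, in Shh-/- limb buds, H3K4me2 and H3K27me3 and no H3K27ac. The next promoter peaks alone, at Ldlrad4 (rank 4), Slc24a2 (rank 6), the netrin receptor gene Unc5a (rank 7) and Ube2ql1 (rank 8), showed the same pattern in Shh-/- limb buds. These and the next were named after their values were seen. Among promoter peaks alone with ranks up to 12, those with no H3K27me3 were Dock4 (rank 9) and Fbxl15 (rank 12). Of the 500 best-ranked promoter peaks of the H3K4me2 list, 233 had H3K27ac (46.6%, 42.3 to 51.0), against 476 with H3K4me2 among the 500 best of the H3K27ac list (95.2%, 93.0 to 96.8). Of the 267 without acetylation, 229 were over 5 kb from any H3K27ac peak and 145 had H3K27me3 in Shh-/- limb buds (54.3%, 48.3 to 60.2). Among all 500 of these H3K4me2 peaks, with or without acetylation, 167 had H3K27me3 there (33.4%, 29.4 to 37.6).

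The best-ranked shared peaks lay at genes of varied function. The H3K27ac peaks of rank 1 to 3 were shared and lay at the histone H4 gene Hist1h4j (chr13:21732550-21736299), at Rnf44 (chr13:54686500-54688499) and at the autophagy gene Atg13 (chr2:91710000-91711849), with log2 ratios of 8.21, 7.82 and 7.67. Histone genes have near-identical copies, so the assignment of reads to Hist1h4j is uncertain. The best shared H3K4me2 peaks were at Frzb (rank 5, chr2:80445700-80448749), Klf16 (rank 17, chr10:80576150-80577449) and Fig4 (rank 18, chr10:41302500-41304349). The widest acetylated peaks were at patterning genes: 20350 bp over Hoxa7, Hoxa9 and Hoxa10 (chr6:52215700-52236049), 19650 bp over Hoxd9, Hoxd10 and Hoxd11 (chr2:74683400-74703049) and 15650 bp at the forelimb gene Tbx5 (chr5:119828400-119844049). All 3 also held H3K4me2. The widest H3K4me2 peaks reached 5650 bp, at the homeobox gene Meis2 (chr2:116060050-116065699), and 5150 bp, at Sema6a and Pcdh7.

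Strong acetylation alone was rarer at promoters and often had H3K4me2 close by. The best-ranked examples were at Ppp4r3b (rank 26, chr11:29172800-29173649), at the kinase gene Dyrk1a (rank 30, chr16:94569500-94570299) and at the chromatin remodeller Atrx (rank 120, chrX:105928650-105929599), with H3K4me2 peaks 101, 401 and 301 bp away. Distal examples lay at varied distances from it. The peak of rank 62 (chr1:162012850-162025849) was 13000 bp wide, the widest of its class, overlapped exons of 2810442N19Rik and Dnm3, and was 27601 bp from H3K4me2. The peak of rank 93 (chr6:35354950-35356499) was intergenic with H3K4me2 201 bp away, the peak of rank 109 (chr12:34200300-34202199) in an Hdac9 intron was 18601 bp from it, and the peak of rank 126 (chr4:154707400-154711799), chosen among peaks over 5 kb from H3K4me2, was 67301 bp from it and 39533 bp from the start of Actrt2. All 4 were also acetylated in Shh-/- limb buds, and those of rank 62 and 126 overlapped H3K4me2 there. Distal methylation alone was led by the intergenic peak of rank 10 (chr5:103691750-103693699, 16651 bp from H3K27ac), a peak over an exon of Tepp (rank 23, chr8:95320400-95320999) and a peak over an exon of Prr7 (rank 72, chr13:55471450-55473149).

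The lists the classes were not built from separated them further. At promoters 24.3% of the 11757 peaks with methylation alone overlapped H3K27me3 of Shh-/- limb buds (23.5 to 25.1), against 2.42% of H3K4me2 peaks with H3K27ac and 0.727% of H3K27ac peaks alone. At distal sites the shares were 16.2% for methylation alone, 3.64% for shared H3K4me2 peaks and 0.197% for acetylation alone. The share of peaks overlapping H3K27me3 was thus highest for methylation alone. Where the H3K27me3 peaks themselves lay was not counted, and no WT list of this mark was used here. Among the better-ranked 50% of peaks the shares over all positions were 30.2% for methylation alone and 3.21% for shared H3K4me2 peaks. The H3K27me3 list was used whole here and for the genes below, and 47.2% of its peaks had a false discovery rate under 0.05. How the H3K27me3 shares depend on its other peaks was not tested.

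Peaks with methylation alone were found again in Shh-/- limb buds more often than peaks with acetylation alone. The WT peaks with methylation alone overlapped Shh-/- H3K4me2 in 78.1% at promoters and 47.4% elsewhere, and Shh-/- H3K27ac in 8.80% and 5.66%. Those with acetylation alone overlapped Shh-/- H3K27ac in 45.5% at promoters and 40.1% elsewhere, and Shh-/- H3K4me2 in 16.4% and 3.39%. In the better-ranked 50% of each list, the overlap with the same mark was 94.9% for methylation alone and 63.8% for acetylation alone, beside 97.4% and 88.4% for shared peaks. The WT and Shh-/- lists differ in the peaks each caller run admitted, so an overlap below 100% is not by itself a change.

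NIH3T3 cells separated promoters from distal sites. At promoters 88.6% of H3K27ac peaks with H3K4me2 overlapped H3K27ac of DMSO-treated cells, against 45.6% of those alone. At distal sites the shares were 45.7% and 15.7%. Purmorphamine gave almost the same values, 88.6%, 46.9%, 46.5% and 15.7%. Of the peaks with methylation alone in the limb, 47.2% at promoters and 19.2% elsewhere were acetylated in these fibroblasts.

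**Figure D4:**
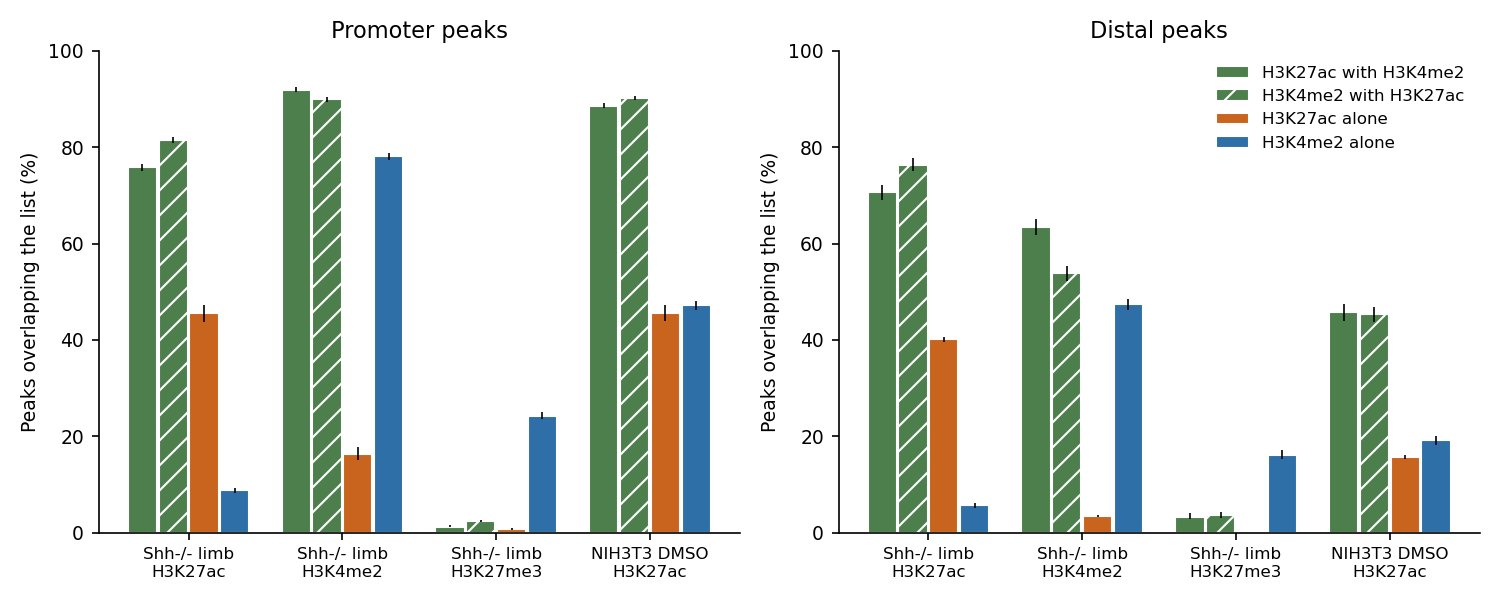
Bars give the percentage of each class of WT peaks (y axis) that overlapped each of 4 other peak lists (x axis), promoter peaks on the left and distal peaks on the right, with 95% Wilson intervals. The share overlapping H3K27me3 of Shh-/- limb buds is highest for methylation alone (24.3% and 16.2%), and acetylation alone seldom meets Shh-/- H3K4me2 (16.4% and 3.39%).

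Promoter states were then assigned to genes. Of 21938 protein-coding genes, 9436 had both marks (43.0%, 42.4 to 43.7), 4609 had methylation alone (21.0%, 20.5 to 21.6), 180 had acetylation alone (0.820%, 0.709 to 0.949) and 7713 had neither (35.2%, 34.5 to 35.8). Acetylation without methylation was thus rare at promoters of protein-coding genes, although it made up most H3K27ac peaks. In 96.7% of the genes with both marks the promoter touched an H3K27ac peak that overlapped H3K4me2, inside or outside the promoter window. By this measure 5.00% of the genes with acetylation alone were counted too. The same 4 states held 40.2%, 23.3%, 0.738% and 35.7% of genes in Shh-/- limb buds. Of the genes with methylation alone in WT, 86.4% had it in Shh-/- too and 402 had both marks there, while 1005 of the genes with both marks in WT had methylation alone in Shh-/-. Of the 180 genes with acetylation alone, 76 kept that state and 65 had neither mark.

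CpG content went with H3K4me2. A promoter was called CpG-rich when the 500 bp on either side of the outermost start had at least 50% GC and a ratio of observed to expected CpG of at least 0.6. Of 10088 CpG-rich promoters 74.1% had both marks, 24.6% methylation alone, 0.208% acetylation alone and 1.07% neither. Of 11850 CpG-poor promoters 16.5% had both, 17.9% methylation alone, 1.34% acetylation alone and 64.2% neither. Few CpG-rich promoters were therefore without H3K4me2. Of all protein-coding genes 2924 (13.3%) had H3K27me3 at the promoter in Shh-/- limb buds. It was found there at 45.9% of genes with methylation alone (44.4 to 47.3), at 5.03% of genes with both marks, at 4.32% of genes with neither and at 2 of the 180 genes with acetylation alone. Acetylation in NIH3T3 cells marked 94.1% of genes with both marks and 46.7% of those with methylation alone.

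Gene lists were used to see which genes made up each state. The lists share some members, and they are read against the shares of all protein-coding genes given above. Of 27 genes of the limb mesenchyme 26 had both marks, and the other, Hoxa13, had H3K4me2 alone. Ribosomal protein genes (78 of 79), proteasome genes (30 of 31) and genes that write or erase the 2 marks or H3K27me3 (22 of 23) had both marks at similar shares. The exceptions were Rpl5 with H3K27ac alone, and the proteasome gene Psmc4 and the acetyltransferase gene Kat2b with H3K4me2 alone. Of 1135 olfactory receptor genes, most of which are silent outside sensory neurons, none had both marks and 1128 had neither. Acetylation alone was found at 2 (Olfr17 and Olfr970) and methylation alone at 5 (Olfr94, Olfr129, Olfr632, Olfr698 and Olfr943). At Rpl5 the acetylated peak was among the strongest of the list (rank 476, log2 ratio 6.25, 1050 bp), and both marks were listed there in Shh-/- limb buds.

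The mesenchyme genes differed in how much of each mark they held. The receptor gene Pdgfra had 9150 bp of H3K27ac peaks touching its promoter windows, with a best rank of 32, and 5850 bp of H3K4me2 peaks. Prrx1, a homeobox gene of the limb mesenchyme, had 8600 bp of H3K27ac and 1950 bp of H3K4me2. Tbx5 had 15650 bp of H3K27ac and 2650 bp of H3K4me2. Acetylated domains were wider than methylated ones at these 3 genes. The reverse was seen at Tbx2, with 450 bp of H3K27ac and 2250 bp of H3K4me2, and at Hoxd13, with 600 and 950 bp. Many mesenchyme genes had distal acetylation around them. Within 100 kb of the gene's start, the median number of distal peaks was 9 with acetylation alone, 3 H3K27ac peaks with H3K4me2 and 3 with methylation alone, and the median over all protein-coding genes was 0 for each. Around Fgf10, the growth factor of the limb mesenchyme, there were 26, 1 and 3, and around Twist1 16, 2 and 0. Such medians were not particular to the mesenchyme list. They were 8, 7 and 4 for the hindlimb genes, 7, 7 and 7 for the Hox genes and 6.5, 2.5 and 1.5 for the Hedgehog genes. In the other lists the median with acetylation alone ran from 0 (neural) to 3.5 (cartilage and bone). H3K27me3 was listed in Shh-/- limb buds at 17 of the 27 mesenchyme promoters, among them those of Tbx5, Prrx1 and Pdgfra, beside 13.3% of all protein-coding genes.

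Hox genes fell into all states but acetylation alone, and neighbours in a cluster were often in the same state. Of 39 Hox genes 27 had both marks, 6 had H3K4me2 alone (Hoxa13, Hoxb1, Hoxb8, Hoxb9, Hoxc8 and Hoxd1) and 6 had neither (Hoxb13, Hoxc9, Hoxc10, Hoxc11, Hoxc12 and Hoxc13). In the HoxC cluster Hoxc4, Hoxc5 and Hoxc6 had both marks, Hoxc8 had methylation alone, and the genes from Hoxc9 to Hoxc13 had neither. In the HoxA cluster Hoxa9, Hoxa10 and Hoxa11 had both and Hoxa13 had methylation alone, with 1100 bp of H3K4me2. In the HoxD cluster Hoxd1 had methylation alone, with a log2 ratio of 4.71 at rank 629, and the genes from Hoxd3 to Hoxd13 had both. Hoxd12 and Hoxd13 had methylation alone in Shh-/- limb buds, 2 of the 1005 genes that had both marks in WT and methylation alone there. The 6 hindlimb genes had no acetylation at the promoter, with H3K4me2 alone at Isl1, Pitx1 and Tbx4 and neither mark at Hoxc9, Hoxc10 and Hoxc11. Distal acetylation was present near some of them, with 13 peaks alone and 7 with H3K4me2 within 100 kb of Tbx4. At Isl1 the H3K4me2 peak had rank 87 and a log2 ratio of 5.19.

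Of 24 genes of the Hedgehog pathway and its limb targets, 21 had both marks. The 3 with methylation alone were the ligand gene Shh, the inhibitor gene Hhip and Bmp2. At Shh, which is active in a small group of posterior cells, the H3K4me2 peak was weak (rank 24463, log2 ratio 2.69, 500 bp). At the receptor gene Ptch1 both marks were broad, 5100 bp of H3K27ac and 4000 bp of H3K4me2. At Gli1, a target and effector of the pathway, there were 1700 bp of H3K27ac and 1750 bp of H3K4me2, and at Grem1, which encodes a BMP antagonist, 700 and 1800 bp. In Shh-/- limb buds Gli1, Grem1, Hoxd12 and Hoxd13 had methylation alone, Shh had neither mark, and Hhip and Bmp2 still had methylation alone. A move from both marks to methylation alone was listed at 1005 of the 9436 protein-coding genes with both marks in WT. The proteasome genes Psma1 and Psma5 were among them.

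Genes of cell types other than mesenchyme were mostly in the state with methylation alone or with neither. Of 26 genes of limb ectoderm and its apical ridge, 21 had methylation alone, among them the ridge growth factor genes Fgf4, Fgf8, Fgf9 and Fgf17, the ectodermal signal Wnt7a and the homeobox gene En1. Tfap2a and Tfap2c had both marks, and Krt5, Krt14 and Trp63 had neither. H3K27me3 was listed in Shh-/- limb buds at 23 of the 26, beside 13.3% of all protein-coding genes. Strength varied in this list: Fgf9 had 5950 bp of H3K4me2 with a best rank of 440, while Fgf4 and Fgf17 had 200 and 100 bp with ranks of 33297 and 33594. None of 26 neural genes had both marks, 18 had methylation alone, and all 26 had H3K27me3 in Shh-/- limb buds, against the same 13.3%.

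Muscle precursor genes were found in 3 states. Of 12, Eya1, Mef2c and Six4 had both marks, 5 had methylation alone, among them Lbx1, Met, Pax3 and Pax7, and the muscle determination genes Myf5, Myf6, Myod1 and Myog had neither. In Shh-/- limb buds Pax3 and Lbx1 had both marks. So did 402 of the 4609 protein-coding genes with methylation alone in WT, Tbx4, Gata6 and Hoxb8 among them. Of 16 endothelial genes Erg, Fli1 and Lmo2 had both, Cdh5 had acetylation alone (100 bp at rank 48810, near the end of the list), 8 had methylation alone, and Emcn, Pecam1, Tek and Tie1 had neither. Of 12 cartilage and bone genes Col2a1, Sox5, Sox6 and Sox9 had both, Gdf5 had acetylation alone (150 bp, rank 22349), Acan, Comp, Ihh, Runx2 and Sp7 had methylation alone, and Col10a1 and Matn1 had neither. Sox9, which starts the chondrocyte program, was thus in the state with both marks, and Col10a1 of late cartilage in the state with neither.

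In the blood, endoderm and cardiac lists more genes had neither mark than any other state. Of 12 blood genes Tal1 had both marks, 3 had methylation alone, Klf1 and Runx1 among them, and 8 had neither. Of 16 endoderm and liver genes Foxa3 had both, 6 had methylation alone, among them Cdx1, Cdx2, Foxa1 and Prox1, and 9 had neither. Of 12 cardiac genes Gata4 had both, Gata6, Hand1 and Tbx20 had methylation alone and 8 had neither. The genes with methylation alone in these 3 lists are mainly transcription factors, and those with neither include the products of mature cells, such as Alb, Afp, Myh6 and Hbb-y.

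**Figure D5:**
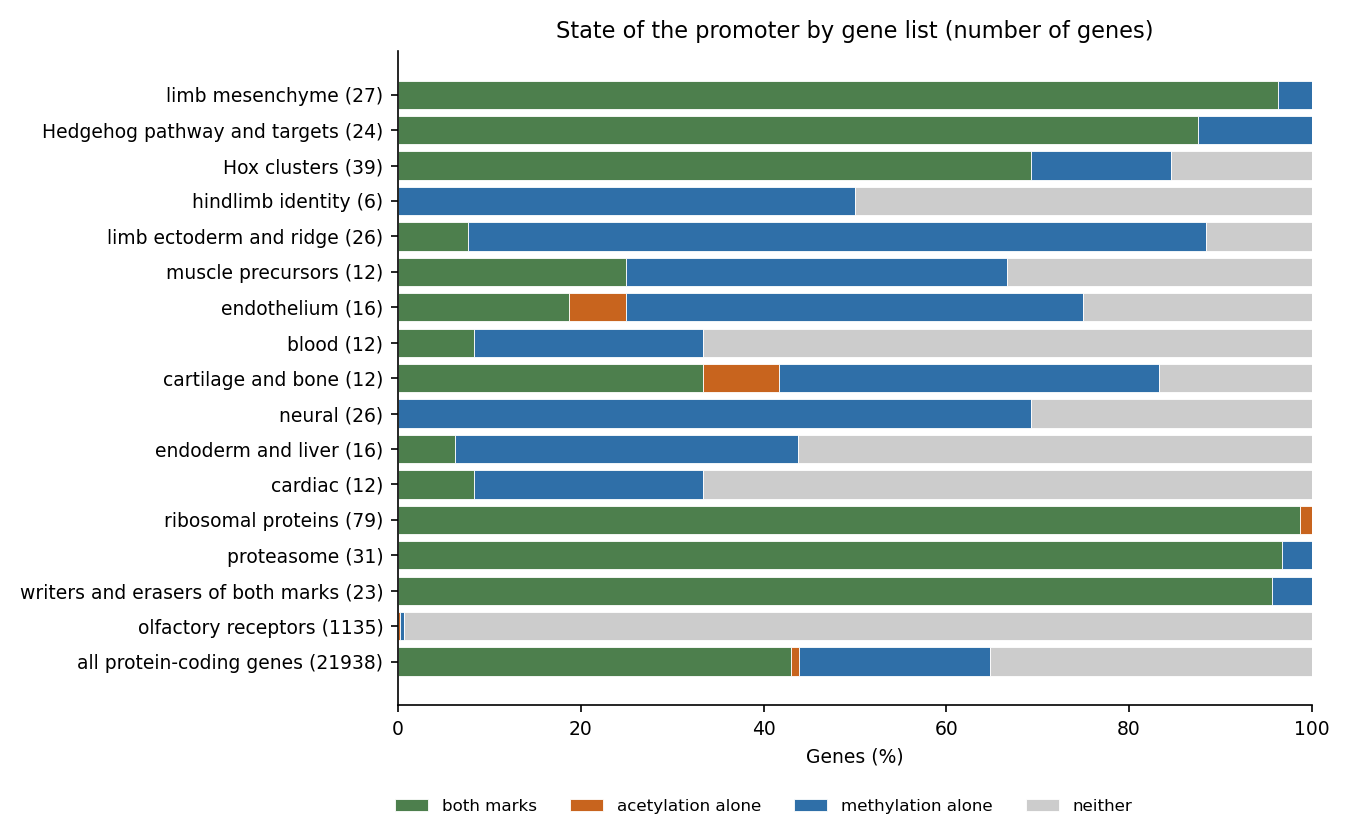
Stacked bars show the percentage of the genes of each list (x axis) whose promoter carried both marks, acetylation alone, methylation alone or neither in WT limb buds, with the number of genes in brackets and all protein-coding genes in the lowest bar. Both marks lead in limb mesenchyme (96.3%) and housekeeping lists, methylation alone leads in limb ectoderm (80.8%) and neural genes (69.2%), and olfactory receptors are almost bare.

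The sequence of the classes was compared in windows of 300 bp around the peak centre, which removes width. Distal acetylation alone had a median GC content of 44.0% and a ratio of observed to expected CpG of 0.192, close to the 41.3% and 0.148 of windows spaced every 100 kb over the genome. Distal methylation alone had 51.3% and 0.406, and 18.9% of its 6937 windows were CpG-rich, against 0.276% of the 30441 windows of distal acetylation alone. Distal H3K27ac peaks with H3K4me2 lay between them, at 50.3% and 0.351 with 13.2% CpG-rich. At promoters H3K27ac peaks with H3K4me2 had 60.7% GC and 0.721, and those alone had 48.0% and 0.280. Promoter H3K4me2 peaks went the other way in GC, with 52.3% and 0.558 when shared and 56.3% and 0.562 when alone. Of these H3K4me2 windows 33.5% and 39.1% were CpG-rich.

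Short motifs were searched as exact letters on both strands, and each share below is of windows with at least 1 match. In distal windows GC-rich motifs were more frequent with methylation alone than with acetylation alone: the SP and KLF box GGGGCGGGG in 4.93% against 0.687% (genome windows 0.529%), the AP-2 motif GCCNNNGGC in 13.0% against 6.19% (4.02%) and the CTCF core CCANNAGGG in 6.98% against 4.63% (3.47%). The E-box CAGCTG was found in 19.2% against 14.8% (10.4%). Motifs rich in A and T went the other way: the homeodomain motif TAATTA in 7.68% against 11.1% (10.6%), the HOX13 motif CAATAAA in 4.64% against 7.38% (8.94%), the SOX motif CCATTGT in 3.33% against 4.62% (5.18%) and the E-box CATATG in 3.45% against 6.94% (9.29%). These differences ran with the GC content of the windows, and their separate part was not tested. Shares of the other motifs, GLI aside, are given in the order methylation alone, acetylation alone and genome. For TGANTCA of AP-1 they were 6.85%, 9.21% and 9.16%, and for CATTCCA of TEAD 4.50%, 5.32% and 4.75%. AGATAAG of GATA factors gave 3.14%, 3.90% and 4.43%, and TGATTGAC of PBX and MEIS gave 0.937%, 0.729% and 0.740%. CCAAT of NFY gave 29.3%, 33.6% and 40.5%. CCGGAAGT of ETS factors gave 0.562%, 0.306% and 0.219%. GCGCATGCG of NRF1 gave 0.332%, 0.0887% and 0.0415%, and AAGATGGCG of YY1 gave 0.115%, 0.135% and 0.298%. The GLI motif GACCACCCA was found in 0.389% (0.268 to 0.566) of distal windows with methylation alone and 0.237% (0.188 to 0.298) of those with acetylation alone, beside 0.170% of genome windows.

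At promoters the motifs were compared between H3K4me2 peaks with H3K27ac and alone, so that both sets of windows were centred on the same mark. The ETS motif CCGGAAGT lay in 1.48% of windows with H3K27ac (1.29 to 1.70) and in 0.825% of those alone (0.677 to 1.01). The YY1 motif AAGATGGCG lay in 0.435% (0.338 to 0.558) and 0.187% (0.124 to 0.283). Both were more frequent with H3K27ac. The NRF1 motif GCGCATGCG was not, with 0.342% (0.258 to 0.453) and 0.357% (0.264 to 0.482), and the GC box was less frequent, with 4.86% (4.51 to 5.23) and 7.20% (6.75 to 7.69). Windows centred on shared H3K27ac peaks held more of all 4 than those centred on shared H3K4me2 peaks. Their shares were 2.80% for ETS, 1.62% for YY1, 0.722% for NRF1 and 7.23% for the GC box, so the values depended on the mark the window was centred on. For the GC box this was near the 7.20% of H3K4me2 peaks alone. The same-sized windows centred on all protein-coding starts held them in 5.04%, 2.32%, 2.12% and 15.1%. A peak centre need not lie on the start, so these shares describe the peaks and not the whole promoters.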

How the data were processed

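H3K27ac and H3K4me2 were mapped by ChIP-seq in pooled E10.5 forelimb buds. Per the study's methods and the submitters' processing notes, the authors aligned reads to mm10 with Bowtie2 2.2.5 and called peaks with CisGenome 2.1.0 against input, taking both libraries of a condition together. limma is also named in those notes. Each deposited list gives a position, width and rank, the false discovery rate (a q-value) in the p-value range, a score (the largest ChIP-against-input statistic), a −log10 p-value and the highest ChIP-to-input ratio in log2. The study states a minimum read depth for its libraries, and the depth of each one is not given in the sources used here. The study's peak threshold was a false discovery rate under 0.05, which 87.9% of the deposited WT H3K4me2 peaks met (highest value 0.113). In Shh-/- limb buds 94.1% of H3K27ac peaks, 87.5% of H3K4me2 peaks and 47.2% of H3K27me3 peaks met it, with a highest value of 0.255 for H3K27me3. All lists were used whole. Scores and log2 ratios were not compared between lists. Peak widths and covered lengths were, although each list was called separately.

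Starts in all lists were multiples of 50, and coordinates are given as deposited. Peaks outside chromosomes 1 to 19, X and Y were left out. Positions and gene states used the basic transcripts of GENCODE vM21, and sequence was read from GRCm38.p6. Overlaps, widths, composition and exact motif matches were computed with Python 3.11.15, numpy 2.4.6, pandas 2.3.3 and scipy 1.17.1, and drawn with matplotlib 3.10.9. The overlap counts were checked with bedtools 2.31.1, which gave the same 15937 and 17890 shared peaks, and the functions were tested on simulated data, where 7 of 7 quantities were recovered. With 1 pooled list per mark there was no test, and shares carry 95% Wilson intervals. Named regions were the 3 best-ranked peaks of each class, the 3 best-ranked distal lone peaks over 5 kb from the other mark and the 3 widest peaks of each list. Named genes were members of fixed lists, those of the rarer states first. A few members are counted in their lists but not reported here by name. The members and lists were chosen with earlier results of these data known. Alternatives changed the overlap rule, the peaks kept, the merging of peaks, the promoter window, the unit counted and the chromosomes used.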

Additional observations from a re-analysis of the deposited data

Results flagged for a closer look

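The WT H3K4me2 list held 28 peaks on sequences outside chromosomes 1 to 19, X and Y, which entered none of the comparisons. They lay on 6 unplaced or unlocalized sequences, with up to 9 on 1 of them, a median width of 400 bp, a median log2 ratio of 2.97 and a best rank of 2895. The WT H3K27ac list held 0 such peaks.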

How the results depend on the processing

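Under each of the 9 alternatives, the promoter share was lower for acetylation alone than for methylation alone, and both lay below the 2 shared classes. Of 86 values computed under an alternative, 24 stayed inside the interval of the reported value, and 62 moved outside it; beyond what each rule changes by construction, the cause was not tested. No paired analysis was possible because the pooled lists carry no replicate values, and for the same reason no replicate could be left out. Only a minimum depth is stated for the libraries, so a limit set by the depth of each one could not be computed.

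Values below are in percent. Counting a peak as shared only when at least 50% of it was covered gave 24.3 of H3K27ac peaks and 30.9 of H3K4me2 peaks shared, with promoter shares of 85.6 and 14.8 for H3K27ac peaks shared and alone, and 71.8 and 69.9 for H3K4me2 peaks shared and alone. Allowing a gap of 500 bp gave 38.3 and 61.7, with 73.2, 6.44, 77.4 and 59.4. The better-ranked 50% of each list gave 32.9 and 48.0, with 90.0, 18.9, 90.0 and 82.4. Lists of equal size gave 37.5 and 45.1, with 63.9 for methylation alone. A false discovery rate under 0.05 in both WT lists gave 30.7 and 51.3, with 81.0, 10.3, 80.7 and 66.2. Merging peaks within 1 kb gave 40.1 and 53.8, with 7.77 for acetylation alone and 58.4 for methylation alone. Counting base pairs gave 29.9 and 31.7, with 22.2 for acetylation alone, 79.2 for shared H3K4me2 and 73.5 for methylation alone. A promoter of 500 bp on either side of a start gave 70.7, 5.59, 68.9 and 50.0.

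The share of protein-coding genes with both marks was 33.3 in the better-ranked 50%, 40.4 with equal lists, 41.1 with the narrower promoter and 43.9 on autosomes. That with acetylation alone was 3.46 in the better-ranked 50%, 0.606 with equal lists, 1.01 under the false discovery rate and 1.34 with the narrower promoter. That with methylation alone was 22.7 in the better-ranked 50% and 23.6 with equal lists.

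Median widths in bp, for H3K27ac shared and alone and H3K4me2 shared and alone, were 700, 450, 850 and 800 in the better-ranked 50%, and 1100, 300, 1500 and 650 after merging. Equal lists gave 600 and 300 for H3K27ac, and the false discovery rate gave 700 and 400 for H3K4me2. Shared peaks had the larger median in each.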

Other observations

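Distal peaks were crowded around a few groups of genes. Acetylation alone was densest at the carboxypeptidase genes of chromosome 6, with 70 distal peaks within 100 kb of Cpa5, 63 near Cpa1 and 57 near Cpa4. Cpa1 and Cpa4 had neither mark at their promoters and Cpa5 had acetylation alone. Distal methylation alone was densest on chromosome 13, with 24 peaks around Trim27 and 21 around Zfp184, both with both marks at their promoters. Distal H3K27ac peaks with H3K4me2 were most frequent around Bcor, a gene for a co-repressor, with 20. Genes of a cluster share these peaks, so the counts are not independent.

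Several classes of noncoding genes carried acetylation alone more often than protein-coding genes. It was found at 4.65% of 5854 lincRNA genes (4.14 to 5.22), 3.55% of 2959 antisense RNA genes (2.94 to 4.28) and 1.65% of 9940 processed pseudogenes (1.42 to 1.92), beside 0.820% of protein-coding genes (0.709 to 0.949). The 1.19% of 1507 snoRNA genes had an interval (0.757 to 1.88) that overlapped that of protein-coding genes. Both marks were found at 8.34%, 20.3% and 1.08% of these 3 classes. Their promoters can overlap those of neighbouring genes, and a mark in a shared window was counted for each gene.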
